A study of Mus musculus with 45 samples.

Results

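The 659 peaks described here are open chromatin regions of mouse embryonic stem cells (mESCs) that lost accessibility within 2 h of OCT4 depletion while largely keeping it within 2 h of SOX2 depletion. They were chosen by the ATACseq counts themselves. Counts were scaled to counts per 1000000 outside mitochondrial peaks (CPM) and averaged over replicates, and a peak was kept if its level in untreated cells (NT) was at least 4 CPM in both the SOX2-FKBP and the OCT4-FKBP line, if its 2H level in OCT4-FKBP cells was at most 0.5 times NT, and if its 2H level in SOX2-FKBP cells was at least 0.8 times NT. Of 184964 peaks in the deposited table, 51462 passed the NT level and are called eligible below. The 659 peaks are 1.28% of them.

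ATACseq uses the Tn5 transposase to cut and tag DNA that is not wrapped in nucleosomes, so the number of fragments over a peak measures its accessibility. In 3 lines OCT4 (encoded by Pou5f1), SOX2 or NANOG carries an FKBP tag, and the small molecule dTAG-13 directs the tagged protein to the proteasome. OCT4-FKBP is a V6.5 mESC line obtained from another laboratory, SOX2-FKBP and NANOG-FKBP are homozygous clones of E14 mESCs (IB10 cells for SOX2), and all cells grew without serum in LIF with inhibitors of MEK and GSK3. NT cells received DMSO and the others 500 nM dTAG-13. OCT4-FKBP has 2 libraries each for NT, 2H, 6H and 24H, SOX2-FKBP has 2 libraries each for NT, 0.5H, 1H, 2H, 6H and 24H, and NANOG-FKBP has 2 NT libraries and 3 libraries each for 2H, 6H and 24H. Each factor was depleted in a line of its own, so the depleted factor cannot be told apart from the background of the line that carries it. The tag acts on the protein, and accessibility counts do not check its depletion. For SOX2 the methods also mention an independent clone, and the labels do not say which libraries, if any, come from it, so a p-value below measures the spread between these libraries, which may be technical.

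OCT4 is a POU factor whose paired DNA-binding domains read an octamer. In pluripotent cells it often binds next to SOX2, an HMG-box factor, on a composite element, and the pair opens chromatin at many enhancers of the pluripotency network. OCT4 can also bind an octamer without SOX2, alone or as a dimer, and it keeps stem cells from turning into trophectoderm.

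Total counts per library lay between 6378962 and 17575631 in OCT4-FKBP, between 5664738 and 10887645 in SOX2-FKBP and between 1817191 and 12437876 in NANOG-FKBP. The replicate 2 libraries of treated NANOG-FKBP cells were the shallowest and the richest in mitochondrial counts, and results of that line are given with and without them. A median member held 100 and 163 fragments in the OCT4-FKBP NT libraries and 13 and 14 in the OCT4-FKBP 24H libraries, so the 24H levels are the least precise of that line. In a bulk library, fewer cells with an open site and less opening per cell cannot be told apart. The stem cell label could not be checked closely from promoters: those of Nanog, Zfp42 and Esrrb were open in every NT library, but so were those of Gata4, Sox17, Cdx2 and Col1a1, markers of primitive endoderm, trophectoderm and fibroblasts, and no peak summit lay within 500 bp of an annotated start of Pou5f1.

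The sequences below show what the strongest members look like. They are the 200 bases around the summit of the 8 members with the lowest OCT4-FKBP 2H level relative to NT among those with at least 10 CPM in NT, on the plus strand of mm10, and capitals mark the POU octamer, written ATGCNAAT or ATTNGCAT on the other strand.
Tenm4, chr7:96061782-96061981: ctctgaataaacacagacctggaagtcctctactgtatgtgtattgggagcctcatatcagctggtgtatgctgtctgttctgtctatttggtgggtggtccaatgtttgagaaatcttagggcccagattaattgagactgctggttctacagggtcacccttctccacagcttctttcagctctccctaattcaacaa
M1ap, chr6:82956803-82957002: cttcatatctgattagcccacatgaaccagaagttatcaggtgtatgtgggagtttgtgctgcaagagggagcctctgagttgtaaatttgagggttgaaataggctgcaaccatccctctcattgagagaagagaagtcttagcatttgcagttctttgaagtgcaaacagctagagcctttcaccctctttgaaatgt
Sox7, chr14:63936586-63936785: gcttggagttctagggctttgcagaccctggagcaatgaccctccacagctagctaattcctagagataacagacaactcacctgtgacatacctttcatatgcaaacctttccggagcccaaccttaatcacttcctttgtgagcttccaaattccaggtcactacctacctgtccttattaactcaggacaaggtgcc
Gm11077, chr6:140731065-140731264: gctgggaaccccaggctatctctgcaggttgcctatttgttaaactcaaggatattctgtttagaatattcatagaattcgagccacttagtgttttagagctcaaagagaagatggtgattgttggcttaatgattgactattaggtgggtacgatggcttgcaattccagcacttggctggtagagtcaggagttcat
Zfp36l1, chr12:80070681-80070880: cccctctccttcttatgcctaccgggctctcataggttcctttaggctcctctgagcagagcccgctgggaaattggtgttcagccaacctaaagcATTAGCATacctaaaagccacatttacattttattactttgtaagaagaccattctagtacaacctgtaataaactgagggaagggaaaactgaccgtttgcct
Zmiz1, chr14:25362923-25363122: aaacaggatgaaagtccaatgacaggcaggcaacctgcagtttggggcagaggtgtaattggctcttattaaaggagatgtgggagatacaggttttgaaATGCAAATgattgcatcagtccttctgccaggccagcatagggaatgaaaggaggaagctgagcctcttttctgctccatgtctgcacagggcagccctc
S1pr1, chr3:115695409-115695608: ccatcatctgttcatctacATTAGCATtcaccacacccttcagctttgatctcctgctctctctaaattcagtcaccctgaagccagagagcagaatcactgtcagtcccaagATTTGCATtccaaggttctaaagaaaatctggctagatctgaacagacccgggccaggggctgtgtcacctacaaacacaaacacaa
Frmd4a, chr2:4221884-4222083: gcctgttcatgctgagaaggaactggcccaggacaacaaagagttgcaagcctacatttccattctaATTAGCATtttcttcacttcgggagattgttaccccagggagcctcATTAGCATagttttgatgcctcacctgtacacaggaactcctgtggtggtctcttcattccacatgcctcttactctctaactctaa
Of these 8 sequences, 4 hold an octamer and 2 of them hold it 2 times. The other 4, among them those nearest Tenm4 and M1ap, hold none in these fixed letters, and sites that differ from them are not marked. Tenm4 encodes a transmembrane protein of neurons, M1ap a protein of male meiosis, Sox7 an endoderm factor, Zfp36l1 a protein that promotes mRNA decay, Zmiz1 a transcriptional coactivator, S1pr1 a receptor for sphingosine-1-phosphate and Frmd4a a scaffold protein. Members are named by the nearest start of a protein-coding gene, which says where they lie and not what they regulate.

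The levels that chose the members are a description. The 2H level in OCT4-FKBP cells ranged from 0.0940 to 0.500 of NT with a median of 0.401, and 66 members were at 0.25 or below. In SOX2-FKBP cells the 2H level ranged from 0.8 to 2.2 of NT with a median of 0.980, and 310 members lay above NT. The rule takes a small part of the OCT4 response. Of 4248 eligible peaks at or below 50% of NT in OCT4-FKBP cells at 2H, 15.5% were members, 2414 were also at or below 50% in SOX2-FKBP cells and 1175 lay between 50% and 80% there. The mirrored rule, loss in SOX2-FKBP with OCT4-FKBP kept, took 1200 peaks.

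**Figure D1:**
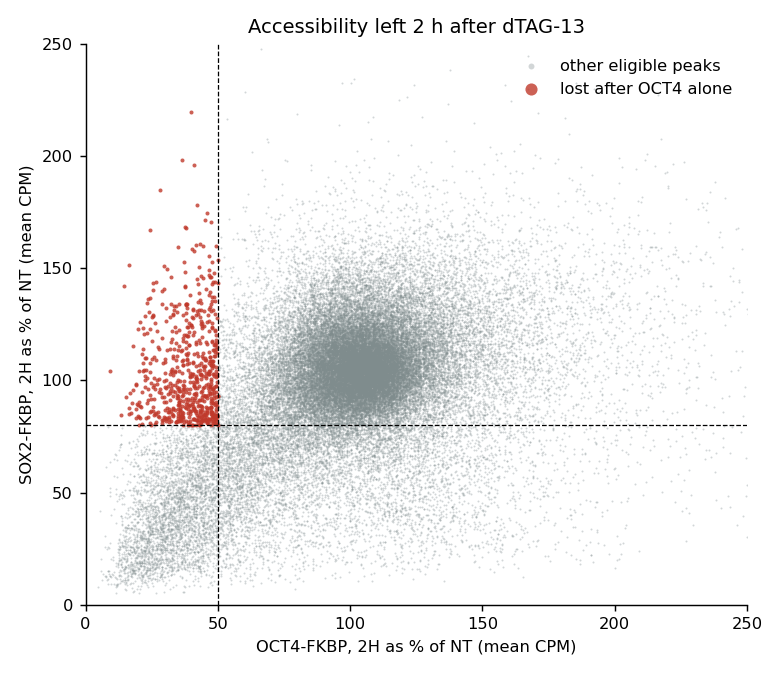
Mean 2H level as a percent of the NT mean (CPM) for each eligible peak, in OCT4-FKBP cells on the horizontal axis and in SOX2-FKBP cells on the vertical axis. Red points are the 659 members, bounded by the dashed lines at 50% and 80%, grey points are the other eligible peaks, and 92 eligible peaks beyond 250% on either axis, none of them members, are not drawn.

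The members have no gap around them. The member closest to the OCT4 limit, 20699 bp upstream of Ffar4, held 49.99% of NT, and the closest peak outside it, near Gigyf2, held 50.05%. The member closest to the SOX2 limit, near Zfp97, held 80.01% of NT, and the closest peak outside it, near Cald1, held 79.95%. The member closest to the NT limit, near Foxo1, had 4.00 CPM in OCT4-FKBP, and a peak at chr1:5461409-5462240 fell outside it with 3.998 CPM. In all, 187 members lay between 45% and 50% of NT in OCT4-FKBP cells and 181 between 80% and 88% in SOX2-FKBP cells. The site inside Lats2, a Hippo pathway kinase gene, that the study drew as an example (chr14:57732416-57733285) was just outside the rule, with 8.48% of NT left in OCT4-FKBP and 79.2% in SOX2-FKBP cells.

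When the rule was applied to 1 replicate alone, its choice carried over in part to the other. The members were chosen with both replicates, so these shares describe the rule and not the members, for which no NT or 2H library was held out. Applied to replicate 1 alone the rule took 864 peaks, 462 of them members. Of the 864, 38.4% met both ratio limits in replicate 2, against 1.30% of the peaks eligible in replicate 1. Applied to replicate 2 alone the rule took 739, 467 of them members. Of the 739, 46.8% met both limits in replicate 1, against 1.67% of eligible peaks. The median level left in the replicate that was not used was 49.1% and 44.1% of NT in OCT4-FKBP and 96.9% and 96.5% in SOX2-FKBP.

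Members were mostly distal. The summit lay in an intron for 335 (50.8%), between genes for 274 (41.6%), within 500 bp of an annotated start for 33 (5.01%) and in an exon for 17 (2.58%). Among eligible peaks the shares were 34.1%, 29.0%, 30.5% and 6.38%. The median distance to the nearest start of a protein-coding gene was 27008 bp for members and 9466 bp for eligible peaks, and 33.5% of members against 17% of eligible peaks lay more than 50000 bp away. The 1200 peaks of the mirrored rule and the 2414 lost in both lines were more distal still. Their shares within 500 bp of an annotated start were 3.33% and 2.90%, and their median distances were 37005 and 40824 bp. Members had a median width of 1083 bp (eligible 1172 bp) and a GC content of 47.3% (eligible 51.7%). They were scattered over the genome: 34 of them (5.16%) had another member within 20000 bp, where 2.56% of eligible peaks had a member that close, and the 659 peaks had 600 different nearest genes. Among the 7 genes nearest to at least 3 members, Tfcp2l1, a transcription factor gene of naive pluripotency, led with 5 of its 24 eligible peaks, and Mtss1 and Tenm4 had 4 each.

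In percentage points, the POU octamer was the motif of those searched that differed most between members and eligible peaks. The fixed letters searched for the SOX-POU composite element were as rare in members as in eligible peaks. Motifs were searched as fixed letters on both strands in the 300 bases around the summit, and a match is a description, not a bound site. The POU octamer ATGCNAAT was present in 222 members, or 33.7% (95% Wilson interval 30.2% to 37.4%), in 5.2% of eligible peaks, in 18% of the peaks lost after both depletions and in 1.50% of those lost after SOX2 alone. The SOX-POU composite element, on which both proteins bind side by side and whose letters overlap those of the octamer, was found in 6 members (0.910%), in 1.02% of eligible peaks and in 10.4% of the peaks lost after both. Octamers and composite sites that differ from these letters are missed. With motif weight matrices and regions called by a test, the paper reports otherwise. There, regions lost after OCT4 depletion and least dependent on SOX2 were still enriched for the Pou5f1::Sox2 motif. A SOX site, CNTTGT, was present in 47.6% of members and 46.0% of eligible peaks, against 69.4% of the peaks lost after SOX2 alone and 73.0% of those lost after both.

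**Figure D2:**
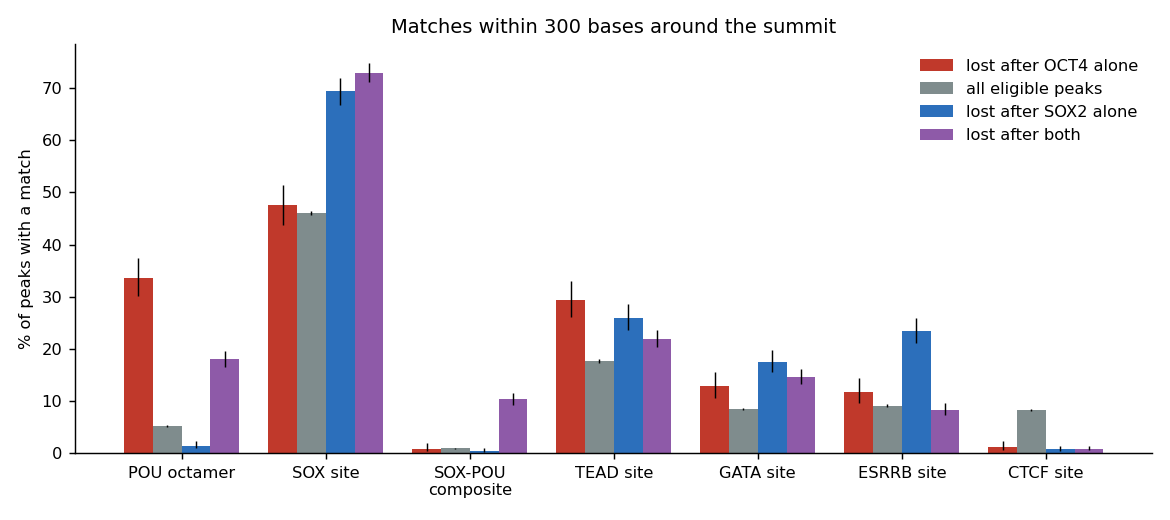
Percent of peaks with a match in the 300 bases around the summit for 7 motifs, with bars for the 659 members (red), all eligible peaks (grey), peaks lost after SOX2 alone (blue) and peaks lost after both (purple), and vertical lines for 95% Wilson intervals. The octamer was found in 33.7% of members against 5.2% of eligible peaks, and the composite element in 0.910% of members against 10.4% of peaks lost after both.

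Octamers clustered near the middle of members. The octamer nearest to the summit was a median of 32 bp from it in members and 46 bp in eligible peaks. It was 38 bp in peaks lost after both and 88 bp in those lost after SOX2 alone. Within 25 bp of the summit, 12.6% of members and 1.62% of eligible peaks had an octamer, shares that also reflect how many peaks held one. That was 83 of the 222 members with an octamer and 835 of the 2672 such eligible peaks. At least 2 octamers were present in 34 members (5.16%) and in 0.424% of eligible peaks. At the free letter of ATGCNAAT, 53.9% of the 258 octamers in members had A, 44.2% had T, 1.55% had C and 0.388% had G, against 6.11% and 1.82% for C and G among the 2914 octamers of eligible peaks. Octamer dimers were rare, with the MORE form in 3 members (0.455%, eligible 0.0486%) and the PORE form in 1 (0.152%, eligible 0.0194%).

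**Figure D3:**
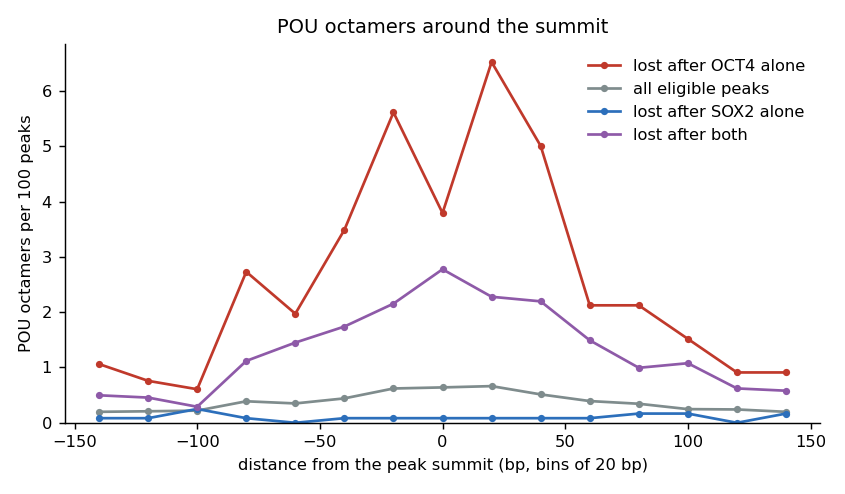
Number of POU octamers per 100 peaks (vertical axis) by distance from the peak summit in bins of 20 bp (horizontal axis), for the 659 members and the 3 comparison sets. Members peak at 6.53 octamers per 100 peaks in the bin at 20 bp, while the line of eligible peaks stays below 1.

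Octamers were frequent in members of every position class. Among the 33 promoter members 14 (42.4%) held an octamer, against 2.40% of eligible promoter peaks, and the shares were 31.9% in introns (eligible 6.46%), 35.4% between genes (eligible 7.12%) and 23.5% in exons (eligible 3.08%). The other motifs differed by fewer percentage points, although by ratio the rare CTCF site and octamer dimers differed more than the octamer. The TEAD site GGAATG was present in 29.4% of members and 17.7% of eligible peaks. It was found in 26.0% of the peaks lost after SOX2 alone and 21.9% of those lost after both. The GATA site AGATAA was present in 12.9% of members and 8.48% of eligible peaks. Its shares were higher in the peaks lost after SOX2 alone (17.6%) and after both (14.6%) than in members. The ESRRB site AAGGTCA was present in 11.8% and 9.17% and in 23.5% of the peaks lost after SOX2 alone. The CTCF site was rare, in 1.21% of members and 8.35% of eligible peaks, as it was in the peaks lost after SOX2 alone (0.750%) and after both (0.912%). The KLF site GGGNGTGG was as frequent in members (21.5%) as in eligible peaks (21.3%). The remaining sites were found in 11.7% (AP-1, TGANTCA), 5.01% (FOX, GTAAACA), 1.97% (STAT, TTCCNGGAA) and 6.07% (TFCP2L1) of members, against 8.24%, 3.37%, 1.35% and 5.48% of eligible peaks.

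In OCT4-FKBP cells the loss deepened after 2H. The median member held 40.1% of its NT level at 2H, 31.2% at 6H and 23.5% at 24H, while the median eligible peak held 102%, 102% and 93.2%. The medians of single libraries were 28.0% and 33.5% at 6H and 19.3% and 24.6% at 24H. The deepening was not particular to members. Peaks lost after both held a median of 31.3%, 22.2% and 16.3% at 2H, 6H and 24H in this line. These shares use the NT libraries of the rule and are a description. At 6H 630 members (95.6%) were at or below 50% of NT, where 11.4% of all eligible peaks were, and at 24H 619 (93.9%) were, where 21.3% of eligible peaks were. The level at 24H was below that at 2H for 574 members, and 59 held at most 10% of NT at 24H. Neither was counted in eligible peaks. At least 80% of NT at 24H was held by 2 members (0.303%) and by 59.4% of eligible peaks. The shares left were alike with and without an octamer: members with an octamer and no SOX site had a median of 23.1% of NT at 24H (112 peaks) and members with neither motif 22.0% (231 peaks).

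**Figure D4:**
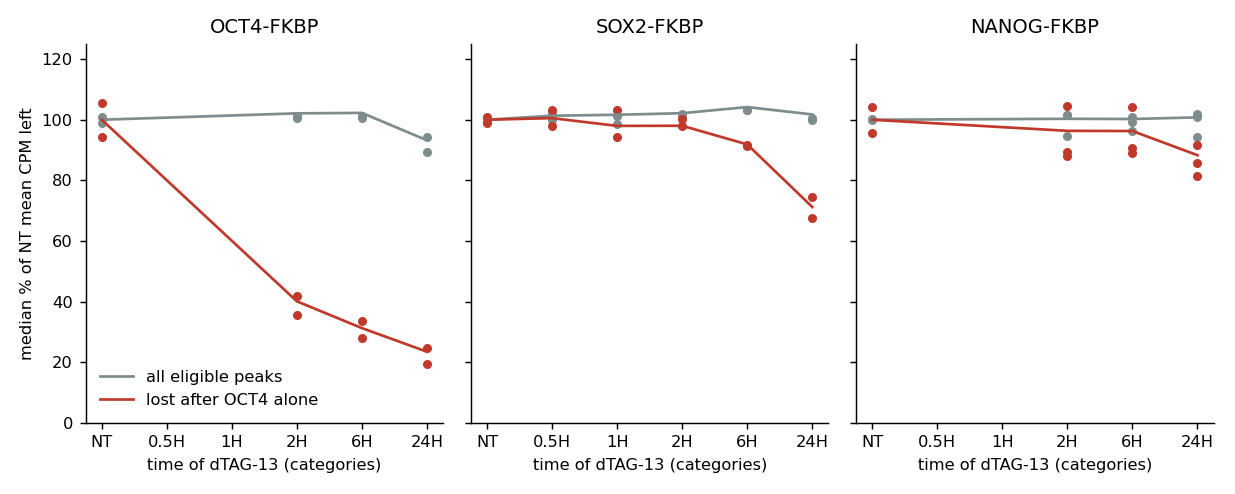
Median level as a percent of the NT mean (vertical axis) over the time of dTAG-13 treatment (horizontal axis, as categories), for the 659 members (red) and all eligible peaks (grey) in the 3 lines, with points for single libraries and lines for the median of group means. Members reach 23.5% of NT at 24H in OCT4-FKBP, 71.2% in SOX2-FKBP and 88.3% in NANOG-FKBP, while eligible peaks stay between 93.2% and 104%.

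The change from 6H to 24H in OCT4-FKBP cells compared no library of the rule and was tested. The libraries of the rule did enter the fit and its estimate of the spread. All 659 members passed the filter on low counts, as in every comparison below. With edgeR's quasi-likelihood test and Benjamini-Hochberg adjustment over 166430 peaks, 46 members (6.98%) fell and 6 (0.910%) rose, against 4.49% and 2.92% of all peaks tested and 10.6% and 5.04% of eligible peaks. The share of members that fell is thus below that of eligible peaks. Their median log2 fold change was -0.34, that of eligible peaks -0.05 and that of all peaks -0.00. A median member held 13 and 14 fragments in the 24H libraries, which limits how many changes the test can call. With the replicate number as a block 102 members fell and 11 rose. Without 24H replicate 1 only 9 members fell and 3 rose, without 6H replicate 2 they were 23 and 2, and without 6H replicate 1 only 2 rose.

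The late losses with the lowest adjusted p in OCT4-FKBP cells were at members near Matn1 and Adgrd1. The member 182729 bp downstream of Matn1, a cartilage matrix gene (chr4:131125389-131127429), had 7.63 and 13.1 CPM in the NT libraries, 2.69 and 3.60 at 6H and 0.271 and 0.821 at 24H. Its 24H libraries lay below both 6H libraries (log2 fold change -2.50, standard error 0.48, adjusted p = 0.000903). The member 145728 bp downstream of Adgrd1, an adhesion G protein-coupled receptor gene (chr5:129241737-129243416), had 20.1 and 25.3 CPM in NT, 9.47 and 6.57 at 6H and 2.17 and 2.96 at 24H, again without overlap (log2 fold change -1.61, standard error 0.31, adjusted p = 0.00085). In SOX2-FKBP cells the Adgrd1 member stayed between 28.8 and 45.4 CPM over all times.

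A few members regained accessibility. The member in an intron of Mdm2, which encodes the ubiquitin ligase of p53 (chr10:117692341-117693166), had 5.89 and 5.76 CPM in NT, 2.50 and 3.17 at 2H, 3.24 and 2.15 at 6H and 10.3 and 6.90 at 24H. Both 24H libraries lay above every earlier library of the line (log2 fold change 1.74, standard error 0.32, adjusted p = 0.000447). The Pde4dip member, in an intron of that gene (chr3:97811029-97812388) had 15.8 and 17.6 CPM in NT, 4.52 and 5.18 at 6H and 8.94 and 8.87 at 24H, so that it stayed below NT while rising from 6H (log2 fold change 0.94, standard error 0.25, adjusted p = 0.0142).

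After SOX2 depletion members declined late. The median member held 101% of NT at 0.5H, 98.0% at both 1H and 2H, 91.9% at 6H and 71.2% at 24H, and the median eligible peak stayed between 101% and 104%. The medians of single libraries were 91.8% and 91.5% at 6H and 74.4% and 67.7% at 24H. The peaks of the mirrored rule also declined late in the line where they were kept. In OCT4-FKBP cells their median was 119% of NT at 2H, 103% at 6H and 53.5% at 24H, where single libraries gave 40.7% and 64.7%. At 6H only 3 members (0.455%) were at or below 50% of NT, where 11.1% of eligible peaks were. At 24H 124 (18.8%) were, where 15.9% of eligible peaks were, and 289 lay between 50% and 80%. At least 80% was held by 246 members (37.3%) and by 68.2% of eligible peaks. Over all 5 treated times, 212 members never fell under 80% of NT, which was not counted in eligible peaks. The floor at 2H is part of the rule, so the early times are a description.

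Comparing 24H with 0.5H, libraries the rule did not use, 240 members (36.4%) fell and 11 (1.67%) rose in the edgeR fit of the 12 SOX2-FKBP libraries, against 9.17% and 6.22% of the 160432 peaks tested and 17.3% and 8.79% of eligible peaks. The median log2 fold change was -0.44 in members and 0.02 in all peaks. Without 24H replicate 2 the count of members that fell was 133, without 0.5H replicate 1 it was 158 and without 0.5H replicate 2 it was 136. The count that rose was 5 and 7 without 24H replicate 1 and 2, and 0 and 4 without 0.5H replicate 1 and 2. With the replicate block 283 fell and 25 rose. The share that fell was not higher with an octamer: 67 of 222 with an octamer (30.2%) and 173 of 437 without (39.6%) did.

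In the medians most of that decline lay between 6H and 24H. From 6H to 24H, with 27 libraries of the 3 lines in the edgeR fit, 12 members (1.82%) fell and 0 rose, against 0.0799% and 0.021% of all peaks tested and 0.177% of eligible peaks for the falls. At an unadjusted p under 0.05, 183 fell and 3 rose, and DESeq2 called 15 lower and 0 higher. The log2 fold change was negative for 544 of 659 members, with a median of -0.34. The count was 0 when any 1 of the 4 libraries compared was left out, and 87 with the replicate block.

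The late changes of the 2 lines were then compared directly. The difference between OCT4-FKBP and SOX2-FKBP cells in the change from 6H to 24H passed the threshold at 0 members in either direction in edgeR, against 0.0222% (lower in OCT4-FKBP) and 0.0018% (higher) of all peaks. At an unadjusted p under 0.05, 31 members were lower and 28 higher, the lowest adjusted p in edgeR was 0.0914, and DESeq2 also called 0. With the replicate block 8 were lower and 6 higher. The median difference was 0.01 on the log2 scale, with quartiles at -0.39 and 0.39.

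The strongest late loss in SOX2-FKBP cells was at a member between genes, 30489 bp downstream of Cxcl12, the gene of a chemokine (chr6:117198556-117200005). It had 15.5 and 17.1 CPM in NT, 13.9 and 15.5 at 0.5H, 12.3 and 14.5 at 2H, 5.53 and 5.34 at 6H and 1.63 and 1.60 at 24H. Both 24H libraries were far below both 0.5H libraries (log2 fold change -3.11, standard error 0.25, adjusted p = 1.21e-10). In OCT4-FKBP cells the same site had 10.5 and 13 CPM in NT, 3.05 and 5.26 at 2H and 0.813 and 1.15 at 24H. At 24H it held 8.35% of NT after OCT4 and 9.91% after SOX2.

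The member in an intron of Glis3, a zinc finger factor gene (chr19:28650459-28651839), showed the same order of times. It had 26.0 and 26.5 CPM at 0.5H, 18.6 and 19.7 at 6H and 6.74 and 7.36 at 24H of SOX2 depletion, without overlap between 24H and the earlier times (24H against 0.5H, log2 fold change -1.84, standard error 0.18, adjusted p = 7.15e-09). From 6H it fell too (log2 fold change -1.40, standard error 0.25, adjusted p = 0.0127). The Tenm4 member shown above, the lowest of the 8 after OCT4 with 15.5 and 16.8 CPM in NT and 1.48 and 1.55 at 2H, had 11.5 and 15.7 CPM at 0.5H and 3.37 and 2.99 at 24H of SOX2 depletion (log2 fold change -2.0, standard error 0.25, adjusted p = 3.38e-07). The Zmiz1 member went from 17.3 and 17.7 to 8.91 and 7.26 CPM (log2 fold change -1.06, standard error 0.21, adjusted p = 0.00055). One of the 33 promoter members, the one nearest Ercc3, a helicase gene of TFIIH (chr18:32292706-32293635), lies at the annotated start of a transcript that is not protein-coding. It went from 10.4 and 15.6 CPM at 6H to 5.32 and 3.63 at 24H (log2 fold change -1.5, standard error 0.29, adjusted p = 0.021).

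Other strong members did not pass the test from 0.5H to 24H of SOX2 depletion. The S1pr1 member, whose sequence holds 2 octamers, had 13.1 and 14.9 CPM in OCT4-FKBP NT cells and 2.14 and 2.34 at 6H of OCT4 depletion. SOX2-FKBP cells had 17.3 and 13.3 CPM in NT and 17.1 and 12.9 at 24H, so the groups overlapped in that line and not in the other. The M1ap member held 8.77% of NT at 24H after OCT4 and 80.1% after SOX2. The Slc9a9 member, 7939 bp upstream of an endosomal ion exchanger gene (chr9:94661386-94662785), had 66.9 and 52.1 CPM in NT and 10.3 and 9.03 at 24H in OCT4-FKBP cells. In the SOX2-FKBP line it had 37.5 and 38.1 CPM in NT and 33.4 and 25.3 at 24H, so both 24H libraries lay below both NT libraries, while the 0.5H libraries, with 28.1 and 30, lay within the 24H range.

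Of the 11 members that rose from 0.5H to 24H of SOX2 depletion, 3 are described here. The member nearest Rps29, although 732397 bp from it (chr12:68426091-68427990), had 11.6 and 12.2 CPM at 0.5H, 17.4 and 17.6 at 6H and 21.3 and 19.0 at 24H (log2 fold change 0.82, standard error 0.19, adjusted p = 0.00193). The Opcml member, in an intron of a cell adhesion gene (chr9:28552418-28553240), had 5.63 and 6.21 CPM at 0.5H and 10.2 and 10.4 at 24H (log2 fold change 0.86, standard error 0.21, adjusted p = 0.00407). At 24H these sites held 201% and 156% of NT after SOX2. In OCT4-FKBP cells they held 43.2% and 20.6% of NT at 24H. The Zfp36l1 member also rose from 0.5H to 24H (log2 fold change 0.91, standard error 0.27, adjusted p = 0.0207), but its 24H libraries, with 4.89 and 6.08 CPM, overlapped those of NT, with 5.74 and 4.44.

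After NANOG depletion some members fell. NANOG is a homeodomain factor of the same network that often shares enhancers with OCT4 and SOX2, and its line played no part in the choice. The median member held 96.3% of NT at 2H and at 6H and 88.3% at 24H, against 100%, 100% and 101% for the median eligible peak, and the library medians at 24H ranged from 81.4% to 91.8%. At or below 50% of NT were 51 members (7.74%) at 2H, where 2.5% of eligible peaks were, 57 (8.65%) at 6H, where 2.7% were, and 101 (15.3%) at 24H, where 4.18% were. The other lost peaks fell too. Of those lost after SOX2 alone 14.5%, 14.2% and 19.1% were at or below 50% at the 3 times. Of those lost after both the shares were 10.6%, 10.1% and 12.7%. At least 80% of NT was held by 67.7%, 66.9% and 59.5% of members at the 3 times, and by 84.3%, 84.7% and 80.4% of eligible peaks. At 24H 36 members were at or below 50% of NT after both SOX2 and NANOG depletion, and the same was not counted in eligible peaks.

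In the edgeR fit of 27 libraries, 38 members (5.77%) fell by 2H of NANOG depletion and 1 rose, against 0.938% and 0.0162% of all peaks and 1.66% of eligible peaks for the falls. By 6H 49 (7.44%) fell and 1 rose, against 1.08% and 0.0367% of all peaks and 2.05% of eligible peaks. By 24H 98 (14.9%) fell, against 2.25% of all peaks and 3.94% of eligible peaks, and 0 rose, against 0.288% of all peaks. Of those that did not pass, 36 were higher at an unadjusted p under 0.05, and DESeq2 called 0 higher. The 3 comparisons share the NT libraries. With the replicate block 61, 80 and 130 members fell and 12, 16 and 20 rose at the 3 times. That block groups NT with treated libraries, and these did not deviate together in this line. In the main fit the median log2 fold change of members was -0.10, -0.07 and -0.17 at the 3 times.

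Single libraries moved these counts. At 2H the count of members that fell was 8 without 2H replicate 1, 15 without NT replicate 1 and 18 without NT replicate 2. At 6H it was 15 without 6H replicate 1, 20 without NT replicate 1 and 25 without NT replicate 2, and at 24H it was 48 without NT replicate 1, 62 without 24H replicate 1 and 57 without 24H replicate 3. The member that rose at 2H and at 6H was no longer called without either NT library or without replicate 1 of that time, nor at 2H without replicate 3. Without the shallow replicate 2 libraries of all treated times together, 30, 43 and 98 members fell.

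The Cxcl12 member was also the clearest loss after NANOG depletion. It had 16.7 and 10.2 CPM in NT, 3.55, 4.00 and 5.74 at 2H, 2.15, 1.41 and 2.47 at 6H and 1.31, 0.871 and 2.38 at 24H. All 9 treated libraries lay below both NT libraries (24H, log2 fold change -3.03, standard error 0.31, adjusted p = 2.24e-08). The Ebf4 member, in an intron (chr2:130302327-130303518) had 14.8 and 15.8 CPM in NT, 7.91, 8.01 and 9.85 at 2H and 3.15, 3.05 and 3.44 at 24H (log2 fold change -2.23, standard error 0.26, adjusted p = 5.72e-07). The Gm11077 member, of a predicted gene, had 8.33 and 12.4 CPM in NT and 1.73, 2.82 and 3.21 at 6H (log2 fold change -2.16, standard error 0.34, adjusted p = 0.000163). At the Kirrel member, 14575 bp upstream of a cell adhesion gene (chr3:87189096-87189471), NT libraries held 4.68 and 9.30 CPM and 2H libraries 1.07, 1.33 and 1.23 (log2 fold change -2.60, standard error 0.45, adjusted p = 0.000808). Its OCT4-FKBP NT libraries differed widely, with 1.91 and 6.28 CPM.

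The member called higher was in an intron of 1500009C09Rik (chr15:82253156-82254745). It had 8.18 and 8.96 CPM in NT, 17.2, 16.7 and 22.8 at 2H and 17.2, 16.5 and 21.2 at 6H of NANOG depletion, without overlap with NT (2H, log2 fold change 1.14, standard error 0.27, adjusted p = 0.0183). In OCT4-FKBP cells it went from 7.46 and 9.19 CPM in NT to 1.85 and 1.55 at 2H. The same site was thus low after OCT4 and high after NANOG depletion.

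Some members fell late in more than 1 line. Of the 240 members that fell from 0.5H to 24H of SOX2 depletion and the 98 that fell by 24H of NANOG depletion, 59 were in both, which is 24.6% of the first list and 60.2% of the second, where 14.9% of all members were on the NANOG list and 36.4% on the SOX2 list. Of the 46 that fell from 6H to 24H of OCT4 depletion, 26 (56.5%) were on the SOX2 list, which is 10.8% of it, and 9 (19.6%) on the NANOG list, which is 9.18% of it. These overlaps were not tested. The Cxcl12, Glis3 and Ebf4 members fell in both SOX2-FKBP and NANOG-FKBP cells, and the Matn1 member in all 3 lines. By 24H of NANOG depletion 16.2% of members with and 14.2% of members without an octamer fell.

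**Figure D5:**
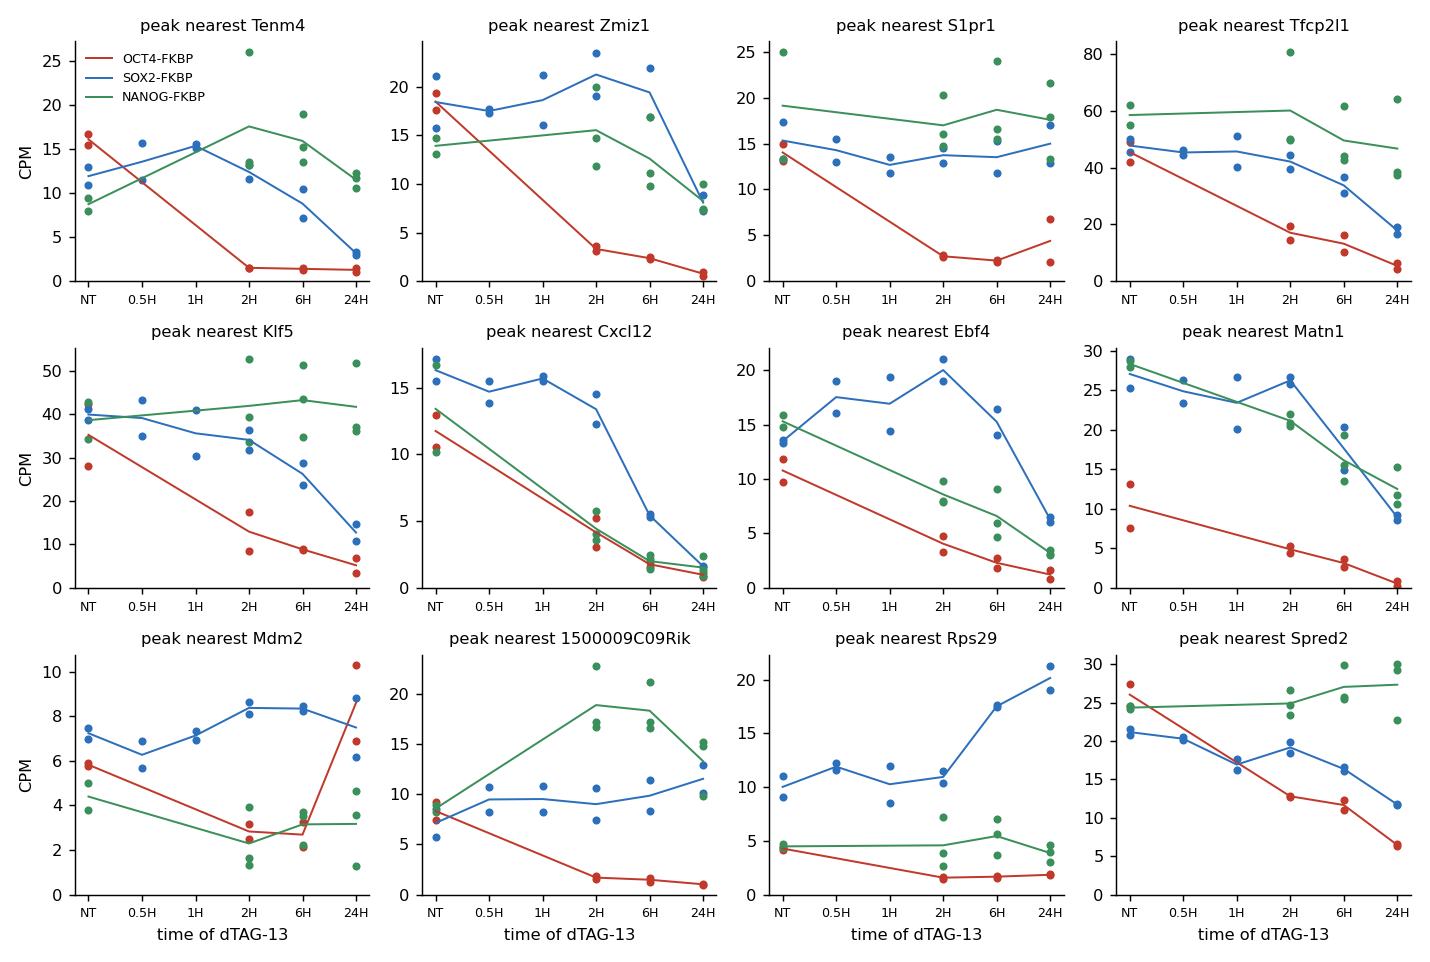
CPM (vertical axes, each from 0) over the time of dTAG-13 treatment (horizontal axes, as categories) at 12 named members, with points for single libraries and lines through group means of OCT4-FKBP (red), SOX2-FKBP (blue) and NANOG-FKBP (green). The Tfcp2l1, Klf5 and Cxcl12 members are low by 2H after OCT4 and by 24H after SOX2, the S1pr1 member is low after OCT4 alone, and the Mdm2 member is above NT again at 24H after OCT4.

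Members near genes of 5 lists with roles in these cells were counted. Pluripotency genes (48 genes) were the nearest gene of 12 members, or 1.82% against 0.976% of eligible peaks, at Tfcp2l1, Gbx2, Zfp42, Mycn, Jarid2 and Klf5. Genes of LIF, BMP, FGF and Wnt signalling (41 genes) had 8 members, 1.21% against 0.760%, at Spred2, Spry2, Spry4, Etv5, Tcf7l1, Tcf7l2 and Lef1. Primitive endoderm genes (22 genes) had 3, 0.455% against 0.189%, at Sox7, Dab2 and Col4a2. Trophectoderm genes (24 genes) had 2, 0.303% against 0.278%, at Elf5 and Tead4, and Hippo pathway genes (30 genes) had 2, 0.303% against 0.323%, at Wwtr1 and Tead4. These shares were not tested. Of the 26 members on any list, 7 fell and 0 rose from 0.5H to 24H of SOX2 depletion (36.4% and 1.67% of all members did), 3 fell from 6H to 24H of OCT4 depletion (6.98% of all members and 4.49% of all peaks did) and 1 fell by 24H of NANOG depletion (14.9% and 2.25% did).

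Tfcp2l1 encodes a factor that maintains naive pluripotency, and a member lies 1321 bp upstream of its start (chr1:118625386-118626922). In OCT4-FKBP cells it had 41.9 and 49.2 CPM in NT, 14.5 and 19.6 at 2H, 10.3 and 16.2 at 6H and 4.20 and 6.57 at 24H. The 24H libraries lay below both 6H libraries (log2 fold change -1.25, standard error 0.32, adjusted p = 0.011). In SOX2-FKBP cells it had 45.5 and 50.1 CPM in NT, 44.4 and 46.4 at 0.5H, 36.6 and 31 at 6H and 19.2 and 16.5 at 24H (24H against 0.5H, log2 fold change -1.28, standard error 0.17, adjusted p = 9.1e-07). In NANOG-FKBP cells it had 62.2 and 55.0 CPM in NT and 38.5, 64.4 and 37.4 at 24H, and the groups overlapped. The other 4 Tfcp2l1 members lay 30413 to 148933 bp downstream of the start and held 12.7% to 43.0% of NT at 24H after OCT4 and 62.6% to 116% after SOX2, and 1 of them fell from 0.5H to 24H of SOX2 depletion.

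The Klf5 member, 40907 bp downstream of the start of another naive pluripotency factor gene (chr14:99339018-99341195), followed the same course. It had 28.1 and 42.3 CPM in NT, 8.51 and 17.4 at 2H and 3.52 and 6.90 at 24H in OCT4-FKBP cells. In SOX2-FKBP cells it had 41.3 and 38.6 CPM in NT, 34.9 and 43.3 at 0.5H and 10.9 and 14.6 at 24H (24H against 0.5H, log2 fold change -1.55, standard error 0.18, adjusted p = 8.33e-08). NANOG-FKBP cells held 108% of NT at 24H. The 2 members near Zfp42, the gene of the stem cell marker REX1, lay 17123 and 18763 bp downstream and held 21.4% and 19.8% of NT at 24H after OCT4 and 70.1% and 87.2% after SOX2, and neither passed a test. The Mycn member held 6.67% of NT at 24H after OCT4 and 57.0% after SOX2.

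At lineage genes the member in an intron of Tead4, which encodes the TEAD factor that starts the trophectoderm program (chr6:128280346-128281396), had 25 and 36.6 CPM in NT and 8.67 and 10.8 at 24H of OCT4 depletion. Its SOX2-FKBP libraries had 16.8 and 18.1 CPM in NT, 20.2 and 25.2 at 0.5H and 21.5 and 22.0 at 24H, and the member did not pass the test from 0.5H to 24H (log2 fold change 0.01, standard error 0.16, adjusted p = 0.977). The Elf5 member, at a trophoblast ETS factor gene (chr2:103360480-103361680), held 28.6% of NT at 24H after OCT4, and in SOX2-FKBP cells it went from 12.4 and 13.3 CPM at 0.5H to 7.39 and 6.72 at 24H (log2 fold change -0.80, standard error 0.20, adjusted p = 0.00534). The Sox7 member, 6987 bp upstream of the start, had 10.0 and 10.6 CPM in NT and 1.48 and 1.89 at 2H of OCT4 depletion. In SOX2-FKBP cells it had 5.11 and 5.85 CPM at 0.5H and 2.39 and 2.67 at 24H (log2 fold change -1.03, standard error 0.27, adjusted p = 0.00755). The Dab2 member, at the gene of an endocytic adaptor of endoderm, and the Wwtr1 member, at the gene of the Hippo effector TAZ, held 40.6% and 23.7% of NT at 24H after OCT4 and 79.0% and 62.5% after SOX2, and neither passed a test. The Col4a2 member, in the neighbouring Col4a1 gene of basement membrane collagen, held 23.4% of NT at 24H after OCT4 and 24.9% after SOX2.

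Among signalling genes the Spred2 member, 76288 bp upstream of the gene of an inhibitor of ERK signalling (chr11:19847718-19848607), had 27.4 and 24.6 CPM in NT, 12.9 and 12.7 at 2H and 6.37 and 6.57 at 24H of OCT4 depletion. The later step, from 6H to 24H, was a fall (log2 fold change -0.79, standard error 0.23, adjusted p = 0.0273). After SOX2 depletion it had 20.1 and 20.5 CPM at 0.5H and 11.8 and 11.6 at 24H (log2 fold change -0.73, standard error 0.17, adjusted p = 0.00225). In NANOG-FKBP cells it held 112% of NT at 24H. The member in an intron of Tcf7l2, a Wnt effector gene (chr19:55792164-55793434), held 49.0% of NT after OCT4 and 97.3% after SOX2 at 24H. It was the list member that fell after NANOG depletion, with 28.1 and 27.7 CPM in NT and 9.29, 22.6 and 11.2 at 24H (log2 fold change -1.09, standard error 0.29, adjusted p = 0.026). The Spry2 and Lef1 members, at the genes of an ERK inhibitor and a Wnt effector, held 39.4% and 42.9% of NT at 24H after OCT4 and 179% and 192% after SOX2, and neither passed a test.

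Members with the highest counts in OCT4-FKBP NT cells also differed in their course after SOX2. The member in an intron of Pigl near Cenpv (chr11:62510491-62513672) had 85.7 and 81.6 CPM in NT, 35.2 and 37.0 at 2H and 20.1 and 29.6 at 24H of OCT4 depletion. It held 70.6% of NT at 24H in SOX2-FKBP and 130% in NANOG-FKBP cells. The Fam19a4 member (chr6:97101384-97102913), with 1 octamer, had 72.7 and 79.0 CPM in NT and 8.40 and 9.03 at 24H of OCT4 depletion. In SOX2-FKBP cells it fell from 0.5H to 24H (log2 fold change -0.67, standard error 0.16, adjusted p = 0.00273). The Ttc39b member (chr4:83329388-83330961) had 24.6 and 28.7 CPM at 6H and 11 and 13.8 at 24H of OCT4 depletion (log2 fold change -1.05, standard error 0.27, adjusted p = 0.0103), and held 103% of NT at 24H in SOX2-FKBP cells.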

How the data were processed

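Paired-end ATACseq reads were mapped by the authors with bwa mem (genome mm10), reads mapped with a quality under 10 and duplicate reads were dropped, and fragments were counted in each library over 1 peak list, which MACS2 had made from the pooled data. The submitters' processing notes name BWA 0.7.17-r1188, SAMtools 1.10 and Picard 2.12.0. The deposited counts are raw whole numbers per peak and library. The deposited peak list also holds a fold enrichment (a ratio) and a −log10 q-value per peak, not used here beyond the summit. The count table has columns for 31 of the 45 samples. Those of the remaining 14 were not analysed here.

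The test was that of edgeR 4.0.16 in R 4.3.3 (TMM, quasi-likelihood test, Benjamini-Hochberg adjustment, threshold 0.05) in 27 libraries (NT, 2H, 6H and 24H of the 3 lines, peaks where over 6 libraries had over 10 counts) or in the 12 SOX2-FKBP libraries (over 10 counts in over 2 of them). DESeq2 1.42.0 was an alternative. Standard errors are approximate, the fold change divided by the square root of F. The scripts were tested on simulated data. NT and 2H of the SOX2-FKBP and OCT4-FKBP lines chose the members, so 7 contrasts that compare none of those libraries were tested. The fits themselves include them. Shares of NT are ratios of mean CPM.

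The reference genome is GRCm38, the build of mm10, and gene starts are those of GENCODE vM21. A promoter peak has its summit within 500 bp of any annotated transcript start. Of 51462 eligible peaks, 51419 lie on assembled chromosomes and gave a sequence. Motif windows were 300 bases. A Wilson interval covers counting error only.

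Libraries with the same replicate number deviated together in OCT4-FKBP (6 pairs of conditions, correlation 0.33 to 0.61) and in SOX2-FKBP (15 pairs, 0.107 to 0.464). As in the study, the main fits had no block, so their fold changes, standard errors and adjusted p-values ignore this pairing. Blocked counts stand beside the results they change. The members, gene lists and motifs were chosen with earlier results of these data known. Named peaks are the 8 lowest 2H ratios in OCT4-FKBP (NT at least 10 CPM), the 4 highest NT levels there, the 2 highest near each gene list, the 2 lowest adjusted p per contrast and direction, the peaks nearest each limit and the Lats2 site. Other list members were named after their values were seen. Alternatives were other normalizations, count filters, thresholds, motif windows and libraries left out; leaving out the treated NANOG-FKBP replicate 2 libraries together and replicate 3 was chosen after seeing the data.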

Additional observations from a re-analysis of the deposited data

How the results depend on the processing

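Of 207 alternative values, 137 stayed near the reported value and 70 did not. With the replicate block, members called lower or higher were 102 and 11 for OCT4-FKBP 24H against 6H, 87 and 0 for SOX2-FKBP 24H against 6H, 8 and 6 for the difference between lines, 283 and 25 for SOX2-FKBP 24H against 0.5H, and 61 and 12, 80 and 16, and 20 higher for NANOG-FKBP at 2H, 6H and 24H. In NANOG-FKBP same-numbered treated libraries deviated together (correlation 0.48 to 0.57) but not with NT (-0.05 to 0.08), and the main fits assumed no pairing there. Chromosome 8 held 5.52% of counts in NT replicate 1 and 7.1% in NT replicate 2. At 24H it held 5.67%, 5.53% and 7.08% in replicates 1, 2 and 3, and replicate 3 was also highest at 2H and 6H. The block groups NT replicate 2 with treated replicate 2, so the blocked NANOG-FKBP counts pair libraries that differ in this share. NT libraries held 7.41% and 7.49% in OCT4-FKBP and 5.17% and 5.21% in SOX2-FKBP, and the cause was not tested. Fitting only the groups compared gave 23 lower and 2 higher for OCT4-FKBP 24H against 6H, 82 and 1 for SOX2-FKBP, and 20 lower for NANOG-FKBP 2H. Requiring at least 10 counts in every library left 264 members in the 3-line fit, which alone lowers counts, and called 5 lower for SOX2-FKBP 24H against 6H, 1 lower for the difference between lines, and 5, 9 and 23 lower for NANOG-FKBP at 2H, 6H and 24H, with 0 higher at 2H and 6H. For SOX2-FKBP 24H against 0.5H, DESeq2 called 5 members higher and total counts outside mitochondrial peaks 7.

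Leaving out 1 library at a time gave 9 to 44 lower and 2 to 4 higher for OCT4-FKBP 24H against 6H, 0 for SOX2-FKBP 24H against 6H and for the difference between lines, 133 to 197 lower and 0 to 7 higher for SOX2-FKBP 24H against 0.5H, and 8 to 34, 15 to 43 and 48 to 96 lower with 0 to 1 higher for NANOG-FKBP at 2H, 6H and 24H. A group left with 1 library was assumed to vary like the others. Medians of NT left ranged over 91.2% to 91.7% (SOX2-FKBP 6H), 87.1% to 103% (NANOG-FKBP 2H) and 82.5% to 93.7% (NANOG-FKBP 24H), and the number of members from 739 to 864 with 1 replicate. It was 295 with an NT level of at least 8 CPM and 328 with an OCT4-FKBP ratio of at most 0.4. Over the whole peak, 47.5% of members held an octamer, 89.5% a SOX site and 2.43% the composite, and in 200 bases 36.9% held a SOX site. The cause of these changes was not tested. The OCT4-FKBP 24H and treated NANOG-FKBP replicate 2 libraries had the fewest counts per member, 13 to 24, which limits what they can show.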
